A study of Mus musculus with 6 samples.

Results

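Elastic fibre assembly genes encode the proteins that build the elastic fibres of the lung, the extracellular cables that stretch with each breath and recoil. The genes were Eln, Fbln5, Fbn1, Fbn2, Lox, Loxl1, Mfap2, Mfap4, Ltbp4 and Emilin1, and every array probe whose gene symbol equalled one of these 10 names was taken. The table held 13 such probes for 9 of the 10 genes, out of 25697 probes for 18138 gene symbols. Fbn2, a fibrillin used mostly in development, was not analysed here because no probe was listed under its symbol or a synonym. Fbln5, which binds elastin and guides it onto the fibre, had 1 probe (ILMN_2681796) that was not detected above the negative control beads on any array. The remaining 12 probes for 8 genes were tested.

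The RNA came from whole lungs taken at postnatal day 6 from males of strain FVB (FVB/N in the study's methods), the age at which the alveoli are being divided by new septa. Lungs of hSRY-ON mice, in which a transgene for the human sex-determining factor SRY is active, were compared with lungs of hSRY-OFF mice, with 3 arrays in each group and 1 array for each sample. The Signalox-hSRY transgene was inserted as a single copy, and the CAG promoter, which is active in nearly all cells, drives a red fluorescent protein gene from it until Cre recombinase removes that gene and puts human SRY under the same promoter. In hSRY-ON mice the Cre came from the egg of a Ddx4-Cre mother. SRY was therefore active in the whole body and not in the lung alone. The hSRY-ON mice chosen for the arrays lacked the Ddx4-Cre transgene. By the study's account, hSRY-ON pups suckled little and grew more slowly than littermates. Their lungs had smaller alveolar sacs and thicker septa already at birth. The part of these differences in the RNA results was not tested. The study's methods use hSRY-OFF for mice with an unrecombined transgene. Elsewhere they call the comparison mice littermates without it, so that the genotype of the hSRY-OFF arrays rests on their label. The labels do not say that replicates came from separate litters. The p-values weigh each group difference against the spread within each group of these 6 samples, and cannot be read as covering spread between litters.

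Elastin is secreted as a soluble monomer, tropoelastin, mainly by myofibroblasts, smooth muscle cells and other mesenchymal cells. The monomer gathers into droplets that Fbln5 and Ltbp4 help to lay down on a scaffold of fibrillin microfibrils, and lysyl oxidases then join neighbouring monomers through their lysine residues into an insoluble core. In the postnatal lung, elastin is laid down at the tips of the growing alveolar septa, and mice without elastin, Fbln5, Ltbp4 or Lox form abnormal airspaces or vessels.

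The hSRY-ON lungs had more Lox RNA, and less Mfap2, Emilin1 and Loxl1 RNA, than the hSRY-OFF lungs. Values are background-corrected, quantile-normalized intensities on the log2 scale, on which a difference of 1 doubles the signal, and a probe was called when its limma p-value, adjusted over all 13841 tested probes, was under 0.05. Of the 12 member probes, 5 were called lower (3 for Mfap2, 1 each for Emilin1 and Loxl1) and 1 was called higher (Lox). Over all tested probes 13.3% were called lower, 13.6% higher and 26.9% either way. By gene, with the brightest probe of each, 3 of 8 members were lower and 1 was higher, against 12.9% and 14.9% of 10292 genes. Without any array other than hSRY-ON replicate 3, the count of lower genes was 1, Mfap2. The median change of the 12 probes was -0.33, and that of all tested probes was -0.03. The 3 values of one group lay wholly above those of the other for 8 of the 12 probes, as they did for 46.6% of all tested probes. These are whole-lung samples, so fewer cells of a type and less RNA per cell cannot be told apart.

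**Figure D1:**
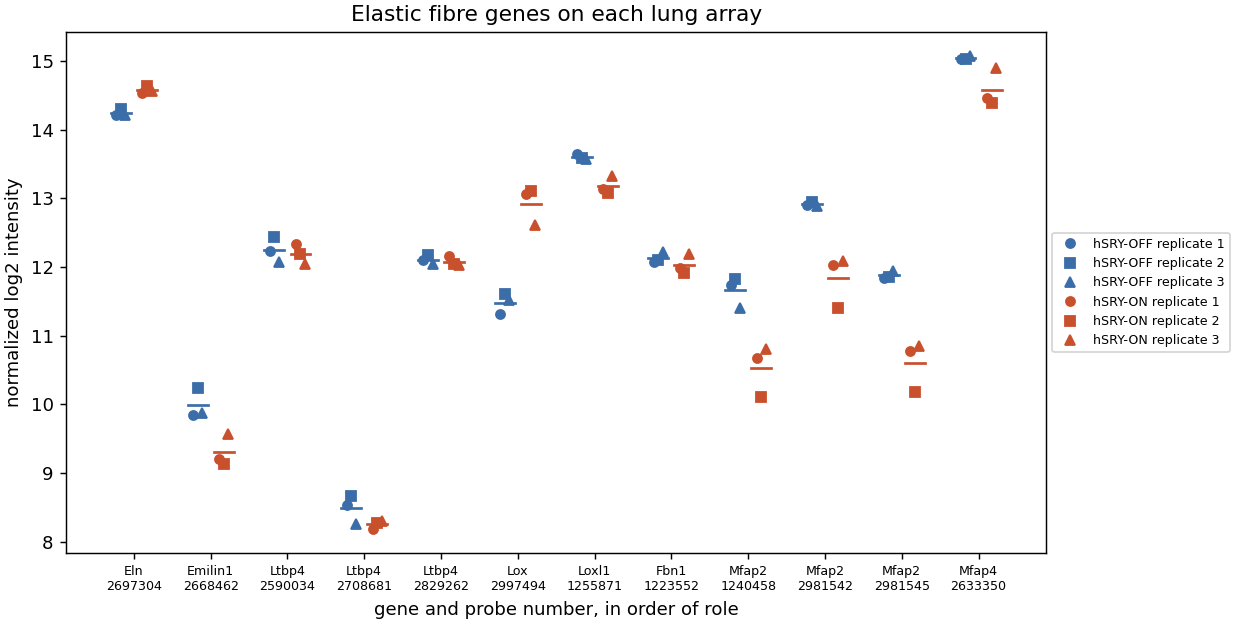
Normalized log2 intensity of the 12 tested probes on each of the 6 lung arrays, with genes in order of role (elastin, elastin-binding, cross-linking, microfibril); symbols mark the replicate, colours the group and short lines the group mean. The red hSRY-ON points lie above the blue hSRY-OFF points for Eln and Lox and below them for Emilin1, Loxl1, Mfap2 and Mfap4, and the groups overlap for Ltbp4 and Fbn1.

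The members were bright on these arrays. Their mean log2 intensity ran from 8.37, for 1 of the Ltbp4 probes, to 14.8 for Mfap4, while the median over all tested probes was 8.32. The Mfap4 probe was brighter than 99.8% of tested probes and the Eln probe brighter than 99.6%. The Fbln5 probe was the exception. Its normalized log2 value was 4.66 ± 0.11 in hSRY-OFF and 4.74 ± 0.20 in hSRY-ON (SD, n = 3 each), below the detection limit in both groups, and no fold is given.

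Elastin itself was not called. The Eln probe (ILMN_2697304) read 14.22, 14.31 and 14.21 on the hSRY-OFF arrays and 14.53, 14.63 and 14.56 on the hSRY-ON arrays. All 3 hSRY-ON values lay above all 3 hSRY-OFF values, and in the intensities as deposited the order was the same. The difference of 0.33 (SE 0.11, 95% interval 0.08 to 0.59), a ratio of 1.26, had an adjusted p of 0.0592 by limma and so missed the threshold. It was called under 6 of 17 other settings, with median scaling in place of quantile normalization giving 0.51 and an adjusted p of 0.0268. Of the 6 fits that left out an array, 0 called it. Without hSRY-OFF replicate 1 it was 0.30 with an adjusted p of 0.205 by limma.

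Among the proteins that bind elastin at the fibre surface, Emilin1 was lower and Ltbp4 was not called. Emilin1 is a glycoprotein found where elastin meets the microfibrils. Its probe (ILMN_2668462) read 9.85, 10.25 and 9.87 in hSRY-OFF and 9.21, 9.13 and 9.58 in hSRY-ON. The groups did not overlap, and hSRY-ON replicate 3 came nearest to the hSRY-OFF arrays. The mean fell from 9.99 ± 0.22 to 9.30 ± 0.24 (SD, n = 3 each), a change of -0.69 (SE 0.17, 95% interval -1.10 to -0.27) or 1.61-fold lower, with an adjusted p of 0.0281 by limma. This call was lost when any array other than hSRY-ON replicate 3 was left out, with adjusted p between 0.0511 and 0.0993, although the change stayed between -0.82 and -0.56 in all 6 cases.

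Ltbp4 binds Fbln5 and helps to place it, with elastin, on the microfibrils, and it also holds latent TGF-beta. Its 3 probes gave changes of -0.06 (ILMN_2590034), -0.23 (ILMN_2708681) and -0.02 (ILMN_2829262). The adjusted p-values were 0.767, 0.246 and 0.887 by limma, and the groups overlapped for each probe. The first and the last of these changed sign under 3 and 4 of 17 other settings. The 95% intervals of this bright pair, -0.41 to 0.28 and -0.29 to 0.24, bound any change of the Ltbp4 signal more narrowly than the size of the Mfap2 and Lox changes.

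The lysyl oxidases moved in opposite directions. Lox and Loxl1 are copper-dependent enzymes that oxidise lysines of tropoelastin, Lox also acting on collagen, and Loxl1 is directed to elastic fibres through Fbln5. The Lox probe (ILMN_2997494) read 11.32, 11.61 and 11.52 on the hSRY-OFF arrays and 13.06, 13.10 and 12.61 on the hSRY-ON arrays. The lowest hSRY-ON array was replicate 3, and it too lay above every hSRY-OFF array. The mean rose from 11.48 ± 0.15 to 12.92 ± 0.28 (SD, n = 3 each), by 1.44 (SE 0.17, 95% interval 1.04 to 1.84) or 2.71-fold, with an adjusted p of 0.00241 by limma. Lox was called under all 17 other settings, with changes from 1.34 to 1.59.

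The Loxl1 probe (ILMN_1255871) read 13.64, 13.59 and 13.58 in hSRY-OFF and 13.14, 13.08 and 13.33 in hSRY-ON. Its hSRY-OFF values were tightly grouped and all above the hSRY-ON values. The mean fell from 13.60 ± 0.03 to 13.18 ± 0.13 (SD, n = 3 each), a change of -0.42 (SE 0.12, 95% interval -0.70 to -0.14) or 1.34-fold lower, with an adjusted p of 0.0386 by limma. The call was lost with median scaling (-0.24, adjusted p 0.253), and also when any array other than hSRY-ON replicate 3 was left out (adjusted p 0.0613 to 0.133).

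The balance between both oxidases on the same array was compared directly, which removes any factor common to both probes on an array. Lox minus Loxl1 was -2.32, -1.98 and -2.06 log2 units on the hSRY-OFF arrays and -0.08, 0.02 and -0.72 on the hSRY-ON arrays, and the groups did not overlap. Levels of different probes are not comparable, so only the shift of this gap between groups is read. The gap went from -2.12 ± 0.18 in hSRY-OFF to -0.26 ± 0.40 in hSRY-ON (SD, n = 3 each). The shift was 1.86, with an exact two-sided permutation p of 0.1, the smallest that 3 against 3 arrays allow, and 0.1 after adjustment over both pairs compared. Without each array in turn it lay between 1.70 and 2.08.

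Of the microfibril genes, Mfap2 was lower on each of its probes, Fbn1 was not called, and Mfap4 lay just outside the threshold. Mfap2 encodes a small glycoprotein that binds fibrillin and is a structural part of most microfibrils. Its probe ILMN_2981545 read 11.85, 11.86 and 11.94 in hSRY-OFF and 10.79, 10.19 and 10.86 in hSRY-ON. Probe ILMN_2981542 read 12.91, 12.94 and 12.89 against 12.04, 11.40 and 12.09. Probe ILMN_1240458 read 11.74, 11.83 and 11.41 against 10.68, 10.11 and 10.80. No hSRY-ON value of any of the 3 probes reached its hSRY-OFF range, and hSRY-ON replicate 2 was the lowest array for all of them. The changes were -1.28 (SE 0.19, adjusted p 0.00509), -1.07 (SE 0.19, adjusted p 0.00931) and -1.13 (SE 0.21, adjusted p 0.0107) by limma, which are 2.42-fold, 2.10-fold and 2.19-fold lower. The first 2 probes were called under all 17 other settings and the last under 16, the exception being the stricter threshold of 0.01. The 3 probes share their RNA samples and gene, so they are repeat readings and not independent evidence.

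The promoter windows of the elastic fibre genes were read for the words AACAAT and AACAAAG, which factors of the SRY and SOX family bind, because the transgene encodes such a factor. RefSeq windows (build GRCm38.p6, the 250 bases before each start site, both strands searched) were found for 5 of the 10 genes. These were Emilin1, Fbln5, Fbn1, Ltbp4 and Mfap2, with 9 windows. Eln, Fbn2, Lox, Loxl1 and Mfap4 had no window and were not searched. Only 1 of the 9 windows, upstream of an Mfap2 start site on the plus strand, held a match. It has AACAAT on the opposite strand, printed in capitals as it reads on the gene's strand, beginning 114 bases before the start site. Over the 32851 windows of the same length that were searched, 9.42% held AACAAT and 5.03% held AACAAAG. The windows of a chromosome were left out of the search, so a member gene on it could have no window here. The second Mfap2 window and that of Emilin1, both on the plus strand, are shown beside it and held neither word. The match is a description of letters and not a binding site.
Mfap2 (chr4:141010174-141010423): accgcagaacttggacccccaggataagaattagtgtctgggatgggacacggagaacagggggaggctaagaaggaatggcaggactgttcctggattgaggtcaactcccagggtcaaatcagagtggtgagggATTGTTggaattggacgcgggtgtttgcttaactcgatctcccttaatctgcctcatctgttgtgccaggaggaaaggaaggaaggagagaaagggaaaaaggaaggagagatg
Mfap2 (chr4:141010431-141010680): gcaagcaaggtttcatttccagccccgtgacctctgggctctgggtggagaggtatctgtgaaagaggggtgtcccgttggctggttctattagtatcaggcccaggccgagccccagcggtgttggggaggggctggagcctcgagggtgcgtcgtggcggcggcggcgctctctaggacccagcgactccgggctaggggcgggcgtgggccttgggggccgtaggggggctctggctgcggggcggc
Emilin1 (chr5:30913536-30913785): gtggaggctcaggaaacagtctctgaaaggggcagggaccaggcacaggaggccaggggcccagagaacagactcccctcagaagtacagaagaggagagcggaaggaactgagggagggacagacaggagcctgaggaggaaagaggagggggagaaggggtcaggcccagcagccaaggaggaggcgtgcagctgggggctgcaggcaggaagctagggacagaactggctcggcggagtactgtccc

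Fbn1, the fibrillin that forms the backbone of most microfibrils after birth, read 12.08, 12.11 and 12.21 in hSRY-OFF and 11.99, 11.91 and 12.19 in hSRY-ON (ILMN_1223552). The groups overlapped. The change was -0.10 (SE 0.12, 95% interval -0.40 to 0.19) with an adjusted p of 0.567 by limma, so that a fall as large as that of Mfap2 lies outside the interval for its scaffold partner.

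Mfap4 encodes an extracellular glycoprotein that binds elastin and fibrillin and is made in quantity by lung mesenchyme. Its probe (ILMN_2633350) read 15.04, 15.04 and 15.07 in hSRY-OFF and 14.46, 14.38 and 14.90 in hSRY-ON. The groups did not overlap, and most of the hSRY-ON spread came from replicate 3. The change of -0.47 (SE 0.16, 95% interval -0.84 to -0.09) had an adjusted p of 0.0686 by limma and was not called. Without hSRY-ON replicate 3 it was -0.63 with an adjusted p of 0.0116 by limma, the only call in the 6 fits that left out an array. With median scaling it shrank to -0.28 (adjusted p 0.233). In all, 6 of 17 other settings called it. Mfap2 minus Mfap4 within an array went from -2.13 ± 0.05 in hSRY-OFF to -2.74 ± 0.29 in hSRY-ON (SD, n = 3 each), a shift of -0.61 with an exact two-sided permutation p of 0.1 (0.1 adjusted over both pairs).

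**Figure D2:**
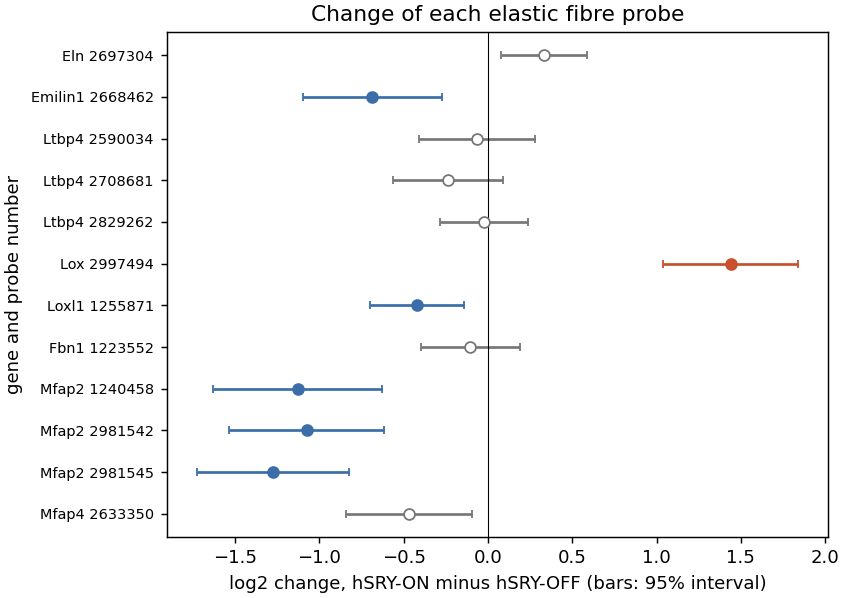
Change of each tested probe (hSRY-ON minus hSRY-OFF, normalized log2 units) with its 95% interval from limma; filled points are called at an adjusted p under 0.05 and open points are not. Lox, at 1.44, is the only probe called higher, the interval of Eln lies above 0 without a call, the 3 Mfap2 probes lie between -1.28 and -1.07, and the intervals of Fbn1 and Ltbp4 cross 0.

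For the member probes, the 3 hSRY-ON arrays were not equally far from the hSRY-OFF lungs. The hSRY-ON array that had moved least in the direction of the mean change was replicate 3 for 9 of the 12 probes, replicate 1 for the other 3 and replicate 2 for 0. The 12 include 3 readings each of Mfap2 and Ltbp4, and the same count was not made over all tested probes. Across all tested probes the median SD within a group was 0.223 in hSRY-ON and 0.130 in hSRY-OFF. Correlations between arrays over all tested probes were 0.991 to 0.993 within hSRY-OFF, 0.972 to 0.980 within hSRY-ON and 0.935 to 0.959 between the groups, with 13191 to 14134 probes detected per array. Precision is limited by having 3 arrays a group.

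The direction of the called members held across the settings tried, and their calls did not all hold. Lox and 2 of the Mfap2 probes were past the threshold in each of the 17 settings, whereas Emilin1 was in 10 and Loxl1 in 8.

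**Figure D3:**
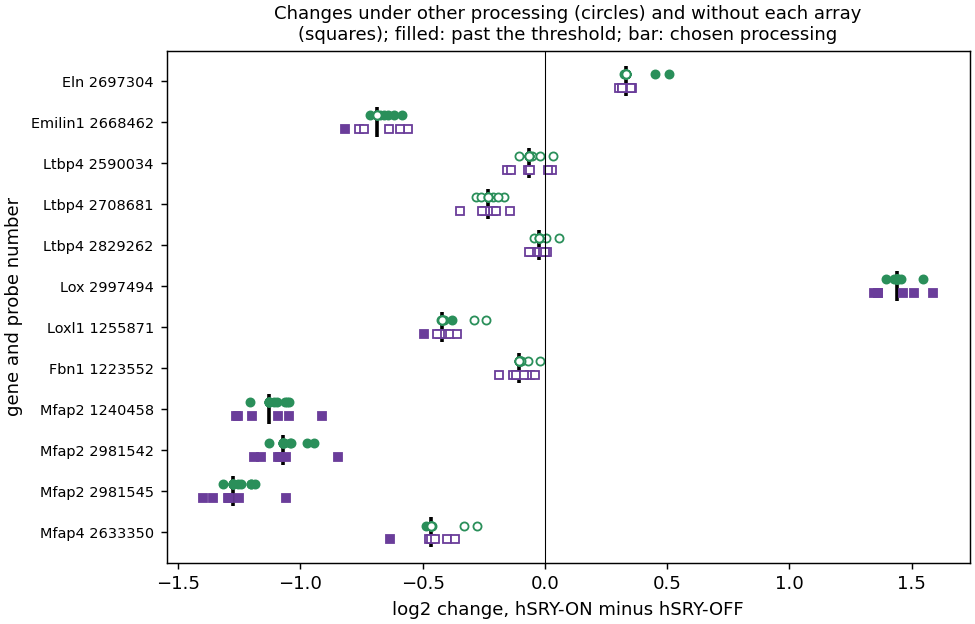
Change of each tested probe under 11 other ways of processing or testing (circles) and without each of the 6 arrays (squares), in normalized log2 units, with a bar at the reported value and filled symbols for an adjusted p past the threshold. Lox stays between 1.34 and 1.59 and filled throughout, Loxl1 runs from -0.50 to -0.24 with open and filled symbols, and only the Ltbp4 symbols lie on both sides of 0.

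Genes that work beside the members were taken from lists, with the brightest tested probe for each gene. Their counts stand against 12.9% of all tested genes called lower and 14.9% called higher. Of 8 tested relatives of the members, 4 were lower, 1 was higher and 3 were not called, with a median of -0.33. Fbln1, a fibulin of the matrix and basement membrane, was 2.33-fold lower (-1.22, SE 0.16, adjusted p 0.00350 by limma). Ltbp3, which holds latent TGF-beta, changed by -0.79 (adjusted p 0.00600), Efemp2, the fibulin that brings Lox to elastin, by -1.11 (adjusted p 0.0187) and Mmrn2, an endothelial relative of Emilin1, by -0.73 (adjusted p 0.0378). Emilin2 rose by 1.25 (adjusted p 0.00832). The 3 not called were Ltbp1 (0.59, adjusted p 0.0675 by limma), Mfap5 (0.14) and the fibulin Fbln2 (0.06). The genes lower in hSRY-ON thus included Emilin1 and the fibulins Fbln1 and Efemp2 but not Fbln2, while Lox and Emilin2 were higher.

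Of 9 tested genes for microfibril accessory proteins and processing enzymes, 4 were higher, 0 lower and 5 not called, with a median of 0.14. At an unadjusted p under 0.05, limma gave 1 lower. The largest of these changes was that of Adamtsl2, which binds fibrillin and Ltbp proteins. Its probe read 7.01, 7.32 and 7.05 in hSRY-OFF and 10.50, 10.42 and 10.28 in hSRY-ON. The arrays of each group lay close together and far from those of the other. The mean went from 7.13 ± 0.17 to 10.40 ± 0.11 (SD, n = 3 each), a rise of 3.27 (SE 0.14, adjusted p 0.000202 by limma) or 9.68-fold. Adamtsl4, which promotes fibrillin deposition, rose by 1.27 (adjusted p 0.00298), the proteoglycan gene Dcn by 0.98 (adjusted p 0.00977) on 1 of its 2 probes, and Thsd4, another fibrillin-binding protein of the Adamts-like family, by 0.93 (adjusted p 0.0120) on both of its probes.

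Among 8 tested genes for elastin and microfibril receptors, 2 were lower, 1 was higher and 5 were not called, with a median of -0.35. The epithelial integrin gene Itgb6 changed by -0.59 (adjusted p 0.00996 by limma), on 2 of its 3 probes. Neu1, the sialidase of the elastin receptor complex, rose by 0.74 (adjusted p 0.0147), and Ctsa, its protective partner, changed by -0.90 (adjusted p 0.0158) on only 1 of its 5 probes and is therefore uncertain.

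Among 11 tested elastase genes and genes for their inhibitors, 5 were higher, 0 lower and 6 not called, with a median of 0.75. At an unadjusted p under 0.05, limma gave 1 lower and 7 higher. Cela1, an elastase made in lung epithelium as well as pancreas, rose by 1.93 (SE 0.19, adjusted p 0.00140) and passed the detection limit on 2 arrays of hSRY-OFF and 3 of hSRY-ON, so its change was measured partly against background. The lysosomal protease genes Ctsl and Ctsk rose by 0.95 (adjusted p 0.00497) and 0.97 (adjusted p 0.0156). The metalloproteinase inhibitor genes Timp1 and Timp3 rose by 0.84 (adjusted p 0.00687) and 0.75 (adjusted p 0.0116), the latter on 1 of its 2 probes. The called genes therefore comprised both proteases and inhibitors of proteases.

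The TGF-beta pathway, which raises Eln and Lox transcripts in fibroblasts, had 2 genes lower, 2 higher and 7 not called of 11 tested, with a median of 0.16. These counts, and that of the collagens, are near the share over all genes. Tgfbi, a secreted matrix protein induced by TGF-beta, changed by -1.17 (adjusted p 0.00620 by limma), and the ligand gene Tgfb3 by -0.95 (adjusted p 0.0111). Ctgf, another gene induced by TGF-beta, rose by 0.90 (adjusted p 0.00909), and the co-receptor gene Tgfbr3 by 1.04 (adjusted p 0.0109) on 1 of its 2 probes. Of 13 tested genes for fibrillar collagens and their partners, whose cross-links Lox also makes, 2 were lower, 0 higher and 11 not called, with a median of -0.22, and limma gave 0 higher at an unadjusted p under 0.05. The lower genes were Col5a1 (-0.57, adjusted p 0.0166) and Col1a1 (-0.60, adjusted p 0.0494).

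**Figure D4:**
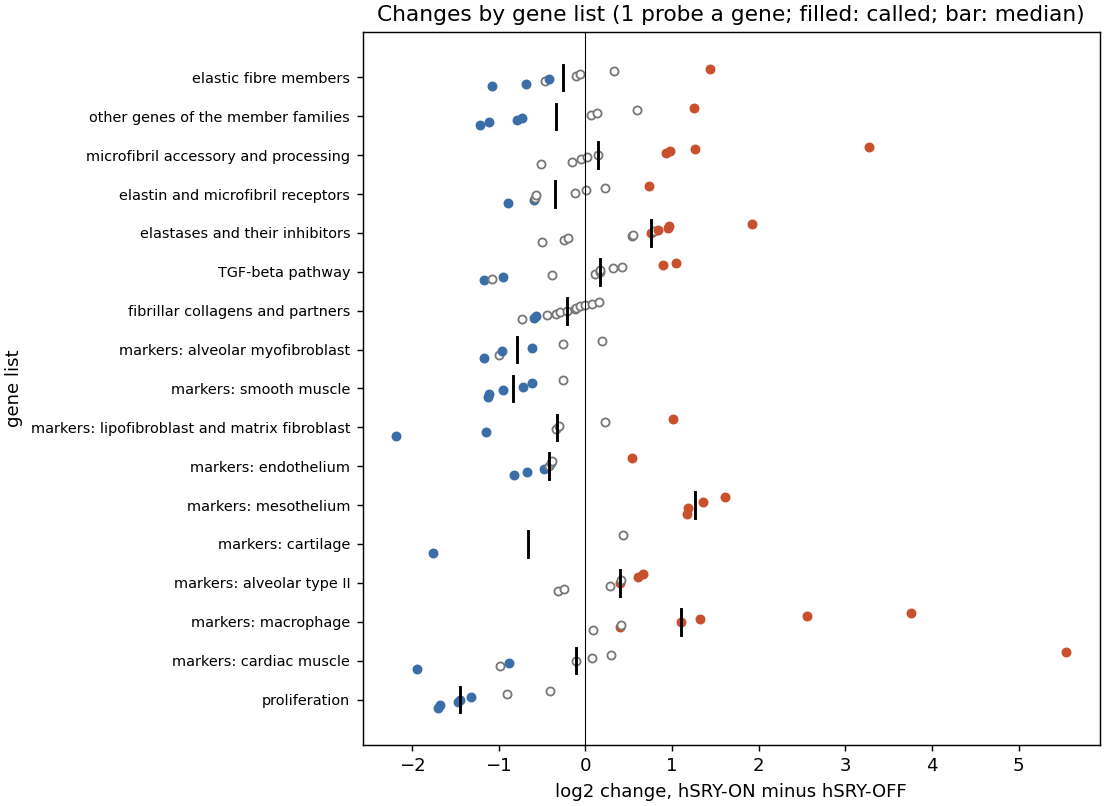
Change of each tested gene (hSRY-ON minus hSRY-OFF, normalized log2 units, brightest probe of each gene) by list, with filled points for called genes and a black bar at the median of the list. The elastic fibre genes and their relatives lie on both sides of 0, the elastase and inhibitor list has its median at 0.75, and the marker lists of smooth muscle and proliferation lie below 0.

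Markers of the cells that make elastic fibres were counted as well, against 12.9% of all tested genes called lower and 14.9% called higher. For alveolar myofibroblasts, 3 of 6 tested markers were lower and 0 higher (limma, also 0 higher at an unadjusted p under 0.05), and the log2 of their summed level was 15.32 to 15.35 in hSRY-OFF and 14.37 to 14.85 in hSRY-ON, with 3 of the 9 markers on the array not detected on any array. Pdgfra, a defining gene of these cells, changed by 0.19 and was not called. For smooth muscle, 5 of 6 tested markers were lower and 0 higher (also 0 higher at an unadjusted p under 0.05), with sums of 15.18 to 15.29 against 14.20 to 14.70, 1 of 8 markers not detected on any array, and Myh11 at -1.12. For lipofibroblasts and matrix fibroblasts, 2 of 6 were lower and 1 higher, and Tcf21 (0.23) was not called. Gyg, among the lower ones, was called on 1 of its 2 probes. The sums of this list, 14.00 to 14.11 in hSRY-OFF and 13.93 to 14.29 in hSRY-ON, overlapped. Acta2 was called lower on 3 of its 4 tested probes. Both the myofibroblast and the smooth muscle list hold Acta2 and Tagln. The brightest Acta2 probe alone made up 61.3% to 74.2% of their sums, so that these sums are largely 1 probe. Without those 2 genes, 2 of 4 tested myofibroblast markers and 4 of 4 smooth muscle markers were lower, with sums of 13.82 to 13.90 in hSRY-OFF against 12.88 to 13.27 in hSRY-ON and of 13.49 to 13.64 against 12.36 to 12.70. The myofibroblast sum was then again largely 1 probe, that of Tgfbi, whose mean was 13.3 in hSRY-OFF and 12.1 in hSRY-ON. That sum therefore speaks mostly for Tgfbi, which the TGF-beta list also holds. The sums add probes of unlike brightness and serve only to compare groups. With and without the shared genes, the myofibroblast and smooth muscle sums did not overlap between groups. Both moved in the direction of Mfap2, Emilin1 and Loxl1 and against that of Lox. The part of any of these marker shifts in the results was not tested.

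Markers of other cells were counted too, against the same 12.9% of tested genes called lower and 14.9% called higher. Those of cartilage and cardiac muscle were few or mixed and are not read as a shift. Of 4 tested mesothelial markers, all 4 were higher, with sums of 11.96 to 12.05 in hSRY-OFF and 13.02 to 13.57 in hSRY-ON and Msln, their defining gene, at 1.36. Macrophage markers were higher for 5 of 7, with Marco at 2.56, and endothelial markers lower for 3 of 7 and higher for 1, while Pecam1 (-0.40, adjusted p 0.0625 by limma) was not called. Alveolar type II markers were higher for 3 of 7, of which Abca3 was called on 1 of its 2 probes, while Sftpc (-0.25) was not called. Lyz2 (0.40) stands in both the macrophage and the type II list and was called in each. Of 2 tested cartilage markers 1 was called lower, Col2a1, which was detected on 3 hSRY-OFF arrays but on 1 hSRY-ON array. Of 7 cardiac markers 2 were called lower and 1 higher, Nppa, which passed the detection limit on all 3 arrays of hSRY-ON and on 2 of hSRY-OFF. The changes of Col2a1 and Nppa are therefore partly against background, and neither gene was tested where detection on all 6 arrays was required. Proliferation genes were lower for 5 of 7, with Mcm3 at -1.70, Ccnb1 at -1.47 and Mcm6 at -1.44, and sums of 12.85 to 13.15 in hSRY-OFF against 11.26 to 12.38 in hSRY-ON. The part of these shifts in the changes of the elastic fibre genes was not tested.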

How the data were processed

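RNA from 6 lungs was measured on Illumina MouseRef-8 BeadChips. The authors deposited, for each probe and array, a linear bead intensity that was neither background-corrected nor normalized, and a detection p-value against negative control beads. The labels name limma, and the study's methods name TCC, a method for counts. The settings of the bead software are not given in the sources used here. Since the deposited values are intensities, they were analysed with limma 3.58.1 in R 4.3.3.

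The detection p-values gave the background estimate (limma's nec, offset 16), after which the arrays were quantile-normalized and put on the log2 scale. Quantile normalization removes any overall shift between groups, and the offset compresses changes of dim probes. A probe was kept where 3 or more arrays had a detection p below 0.05 (13841 of 25697, 53.9%). Groups came from the sample titles and the test was limma's lmFit and eBayes with no covariate, with Benjamini-Hochberg adjustment over all kept probes and a threshold of 0.05. Of 4 within-array pairs planned, 2 could be compared, because Fbn2 and Fbln5 were not tested. The members and the lists were chosen with earlier results of these data known, so no p was adjusted over a list. Every member was named, and from each list the 3 called genes with the smallest p, or the first marker. Other genes of the lists were named after their values were seen. The median intensity of an array was 177.1 to 204.0. The steps were tested on simulated data. Alternatives covered background correction, normalization, filter, variance model, array weights, threshold, a replicate block and leaving out each array.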

Additional observations from a re-analysis of the deposited data

How the results depend on the processing

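The calls, changes and list counts were recomputed under 11 other settings and without each array. The within-array shifts were recomputed under the 5 settings that change the normalized values and without each array. The marker sums were not recomputed under other settings. The median change of the member probes stayed negative in all of them. Of the tests of single member probes under these alternatives, 175 kept their side of the threshold and their direction if called, 17 lost a call and 12 gained one. The 1 member probe called higher became 2, Eln being added, with no background correction, an offset of 50, median scaling, median scaling without background correction, detection on all 6 arrays, or a variance trend with robust estimation. The 5 called lower became 2 at a threshold of 0.01, the Mfap2 probes ILMN_2981542 and ILMN_2981545. Without each array in turn, 3 member probes were called lower, or 6 without hSRY-ON replicate 3, Mfap4 being added. Over all tested probes, 3728 were called, 1326 at the threshold of 0.01, and 1652, 1748 and 2235 without hSRY-OFF replicates 1, 2 and 3 and 2462 without hSRY-ON replicate 2.

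The list counts moved with single arrays as well. Without hSRY-OFF replicate 1, the lower relatives numbered 2, the higher elastase and inhibitor genes 3, the lower smooth muscle markers 3, the higher macrophage markers 3 and the lower proliferation genes 3. Without hSRY-OFF replicate 2, the smooth muscle and macrophage counts were also 3, and without hSRY-OFF replicate 3 the lower relatives were 2. The lower lipofibroblast markers were 1 without any hSRY-OFF array or hSRY-ON replicate 2. The lower cardiac markers were 1 without any array other than hSRY-ON replicate 1. The higher endothelial markers were 0 without any hSRY-OFF array or hSRY-ON replicate 2. Without hSRY-OFF replicate 1 or 2, limma called 0 collagen genes and 1 receptor gene lower and 0 receptor genes higher, and without any hSRY-OFF array 1 myofibroblast marker was lower. The higher mesothelial markers were 2 without any hSRY-OFF array or hSRY-ON replicate 2. Lower TGF-beta genes were 4 without hSRY-ON replicate 1, lower collagen genes were 1 without hSRY-ON replicate 2 and 4 without hSRY-ON replicate 3, and higher relatives were 2 without the latter.

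The labels state no pairing of the arrays by replicate number. The deviations of same-numbered arrays correlated at -0.11, 0.10 and -0.09, and those of other pairs at -0.09 to 0.16. These values overlap, so they cannot tell pairing from its absence. With the replicate block, 3 member probes were called lower, Emilin1 (adjusted p 0.0655) and Loxl1 (0.0894) no longer being called. Lower collagen genes were then 0, lower myofibroblast and cardiac markers 1 each and higher endothelial markers 0. Leaving out arrays for the within-array pairs was chosen after seeing the data, and their shifts kept their sign. The causes of these differences were not tested.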
